A study of Danio rerio with 2 samples.

Results

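A set of 185 transcripts strongly concentrated at the vegetal pole of the newly fertilised zebrafish egg was chosen by read counts, from 50038 Ensembl transcripts in the deposited table. A transcript was a member when it had at least 200 reads in the vegetal pole library and when its CPM (its share of the library's counted reads, scaled to the same total in both libraries) was at least 8 times that in the animal pole library. Both libraries came from fertilised eggs of the AB strain of Danio rerio, 0 to 20 min after fertilisation, with no treatment or genetic change named. One was made from animal pole explant material and the other from vegetal pole explant material, and polyadenylated RNA was sequenced. The number of explants in each library is not known here. Each pole has 1 library, of 16533617 counted reads (animal) and 17685736 (vegetal), so differences between the poles could not be set against replicates and p-values are left out. Intervals of ratios and of shares of reads are exact 95% intervals of the counts. They cover counting error only, not the spread between eggs or libraries. They treat reads as independent, so reads copied by PCR would make them too narrow. Intervals of medians and of shares of transcripts, also exact 95% intervals, take transcripts as the unit and hold no counting error of reads.

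Before the embryonic genome is switched on, the egg relies on messenger RNA that the mother placed in it, and some of these RNAs are held at one end of the cell. In the zebrafish oocyte, RNAs reach the vegetal cortex early, through a structure called the Balbiani body, or later by other transport. Among RNAs known from the vegetal pole of fish and frog eggs are some needed for germ cells, such as dazl, which encodes an RNA-binding protein, and some needed to set up the dorsal side of the embryo. After fertilisation cytoplasm streams from the yolk to the animal pole and forms the blastodisc, from which the embryo arises. The title of the series names vrtn as vegetally localised and as a repressor of bmp2b, a gene for a signalling protein that patterns the embryo from back to belly.

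The members are described by transcript, because gene names could not be attached to them. The deposited table names 2 rows, beta actin1 and gapdh, and neither is a member; their CPM ratios of vegetal over animal were 2.71 and 2.31. None of the transcript identifiers occurred in the gene name tables used here (0 matches), so whether vrtn, dazl or bmp2b is among the members was not analysed here, and neither were markers of follicle or blood cells in the explants. Several members may be isoforms of the same gene, so 185 is not a number of genes. The values are shares of each library, so less of a transcript in an explant and more of all other RNA there cannot be told apart.

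Among transcripts with at least 200 reads in the library with the higher level, strong concentration was uncommon in either direction. Of 8335 transcripts with at least 200 vegetal reads, 185 (2.22%) were members, and the median CPM ratio of the 8335 was 1.09. With the libraries exchanged, 83 of 7704 transcripts with at least 200 animal reads (1.08%) had at least 8 times more CPM in the animal library. The members held 475282 vegetal reads, 2.69% of that library (2.68 to 2.69%), and 30307 animal reads, 0.183% (0.181 to 0.185%). The 83 animal transcripts held 1.15% of the reads of their own library (1.15 to 1.16%) and 0.0739% of those of the vegetal one (0.0726 to 0.0752%). Such counts and shares follow from the way the members were selected and describe them.

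**Figure D1:**
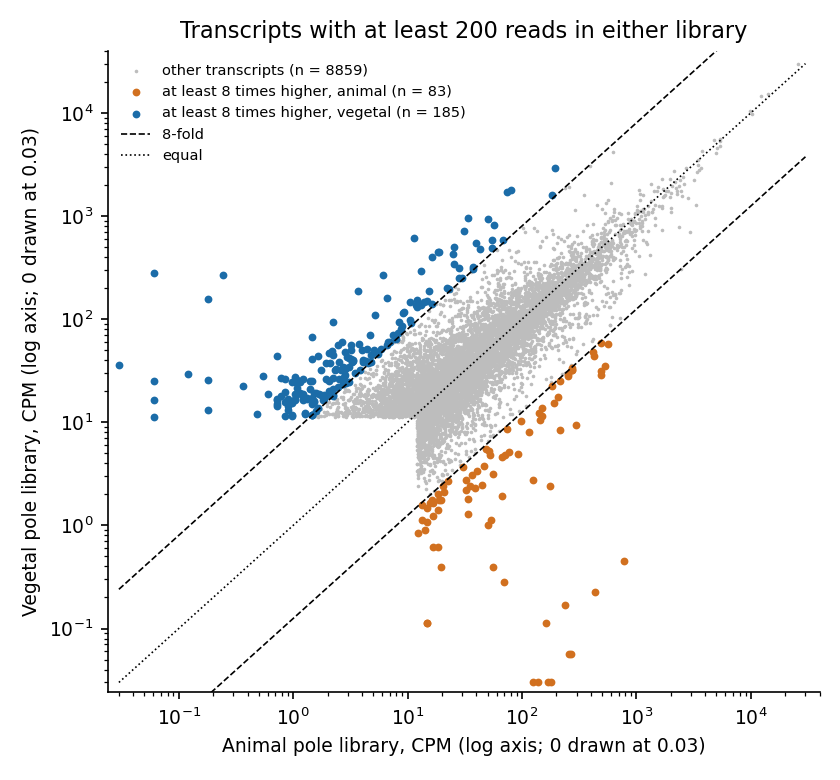
CPM in the vegetal library against CPM in the animal library (log axes, 0 drawn at 0.03) for each transcript with at least 200 reads in either library; dashed lines mark 8-fold and the dotted line equal values. The 185 members (blue) lie above the upper dashed line, the 83 transcripts of the opposite kind (orange) below the lower one, and most of both sets lie close to their line.

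The most abundant members ranked among the abundant messages of the vegetal library. ENSDART00000052603, of 2035 nt, had 31323 reads and 870 RPKM (the read count per length of transcript and per reads counted in the library) in the vegetal library and 1329 reads and 39.5 RPKM in the animal library. It had the highest vegetal RPKM of the members, rank 60 among all transcripts of that library, and its CPM ratio was 22.0 (20.9 to 23.3). It was far from absent in the animal library, where its reads covered 99% of the transcript. A second member, of 3446 nt, had the most reads, 51519 (vegetal) and 3236 (animal). Its RPKM was 845 and 56.8, and its ratio was lower, at 14.9 (14.4 to 15.4).

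The 10 members with the highest vegetal RPKM, from 377 to 870 RPKM, all had a readable level in the animal library, from 18.6 to 67.8 RPKM. Their CPM ratios ran from 8.69 to 24.6, and 5 of the 10 lay between 20 and 25. The 5 are the nearly alike members described under Other observations, so they may not be independent. The 10 members had lengths of 804 to 3446 nt, and their animal reads, 272 to 3236 each, covered 88 to 100% of each transcript. In the vegetal library 4 members were among the 100 transcripts with the highest RPKM and 35 among the first 1000, whereas in the animal library none was among the first 1000 (0 members) and 1 was among the first 2000. The best rank of a member in the animal library was 1781. The members' own median rank was 4403 (vegetal) and 13840 (animal). The low ranks in the animal library follow in part from the way the members were chosen. For comparison, 2.22% of the 8335 transcripts with at least 200 vegetal reads were members.

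Few members carried most of the reads. The member with most reads held 10.8% of all vegetal reads of the members, the first 5 held 33.3%, the first 10 held 47.0% and the first 50 held 84.7%. The 92 members with the fewest reads held 7.19%. Without the first 5, the members' share of the vegetal library was 1.79% in place of 2.69%. The typical member was far less abundant.

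The median vegetal RPKM of the members was 22.9 (quartiles 9.97 and 87.9, range 1.58 to 870), beside 24.8 (11.0 and 59.1) for the other 8150 transcripts with at least 200 vegetal reads. The upper quartile of the members was the higher of the 2. By class, 3.33% (2.33 to 4.60%) of transcripts of 100 to 500 vegetal RPKM and 4.11% (1.52 to 8.73%) of those of 500 RPKM or more were members. At 50 to 100 RPKM 2.02% were (1.31 to 2.96%), at 20 to 50 RPKM 1.46% (1.0 to 2.04%), and at 5 to 20 RPKM 2.45% (1.93 to 3.06%). Under 5 RPKM the share was 1.98% (1.03 to 3.43%), and over all classes 2.22%. The classes are cut on the vegetal level, which also enters the ratio that chose the members. The shares therefore do not show whether abundant transcripts are more often vegetal. The intervals treat transcripts as independent, which isoforms are not, and no test was made between classes. In the animal library the members had a median of 1.69 RPKM recomputed from reads, beside 22.1 RPKM for the other transcripts, a gap that the choice of members sets.

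The members had a median length of 1773 nt (quartiles 1056 and 2791, range 266 to 8710), beside 1883 nt (1010 and 2965) for the other 8150 transcripts. The interval of the members' median, 1611 to 2005 nt, included the latter value. The 83 animal transcripts had a median length of 2199 nt (interval 1848 to 2562), and the interval overlapped that of the members. Both intervals treat transcripts as independent, which isoforms are not, and no test of length was made. A minimum of 200 reads asks for more RPKM of a short transcript than of a long one. It corresponds to 22.6 RPKM at 500 nt and to 2.26 RPKM at 5000 nt, so the lowest RPKM that a member can have falls with length.

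**Figure D2:**
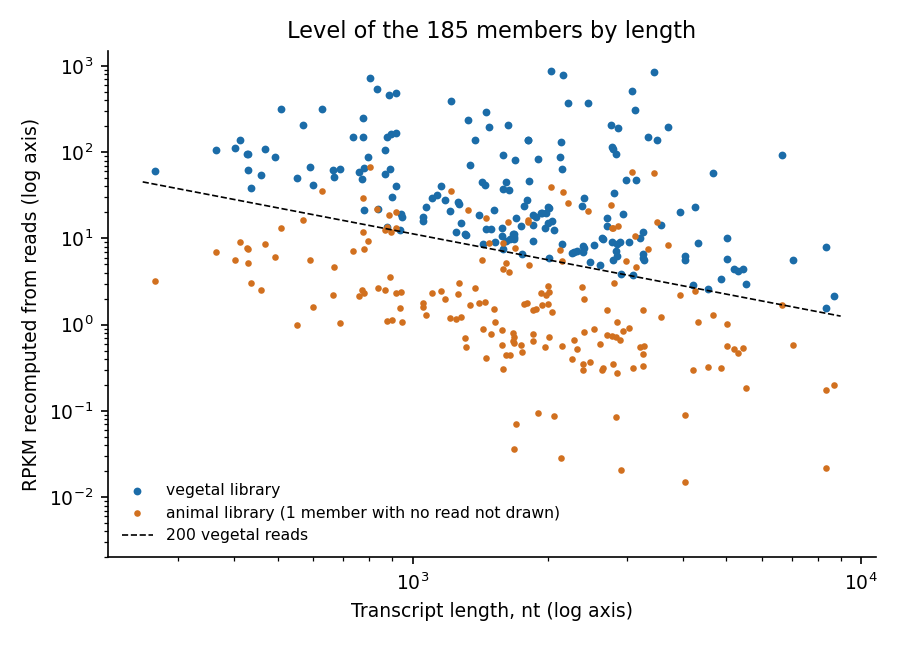
RPKM recomputed from reads against transcript length (log axes) for the 185 members, in the vegetal (blue) and the animal library (orange); the dashed line is the RPKM of 200 vegetal reads. Every blue point is on or above the line by the choice of members, the highest reach 870 RPKM, and the orange points run from under 0.1 to 67.8 RPKM.

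The share of members differed little between most length classes. Of 234 tested transcripts shorter than 500 nt, 11 (4.70%, 2.37 to 8.26%) were members. The share was 1.87% (1.30 to 2.60%) at 500 to 1000 nt, 2.52% (1.94 to 3.23%) at 1000 to 2000 nt, 2.19% (1.67 to 2.81%) at 2000 to 4000 nt and 1.69% (1.02 to 2.63%) at 4000 nt or more. The shortest class had the highest share. Its interval overlapped those of the other 4 classes, which does not show that the shares are alike. The intervals treat transcripts as independent, which isoforms are not, and no test was made between length classes. None of 200 transcripts under 500 nt with at least 200 animal reads was 8 times higher in the animal library, which allows a share of up to 1.83% by the exact interval. The difference between the poles in this class was not tested. With a minimum of 5 vegetal RPKM in place of 200 reads, the share passing 8-fold was 4.01% under 500 nt (23 of 574), 2.49%, 2.79% and 2.29% in the next 3 classes, and 1.36% at 4000 nt or more (10 of 738). At that minimum short transcripts can pass on fewer than 200 reads, where the counting error of a ratio is larger. What part counting error has in these shares was not tested.

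**Figure D3:**
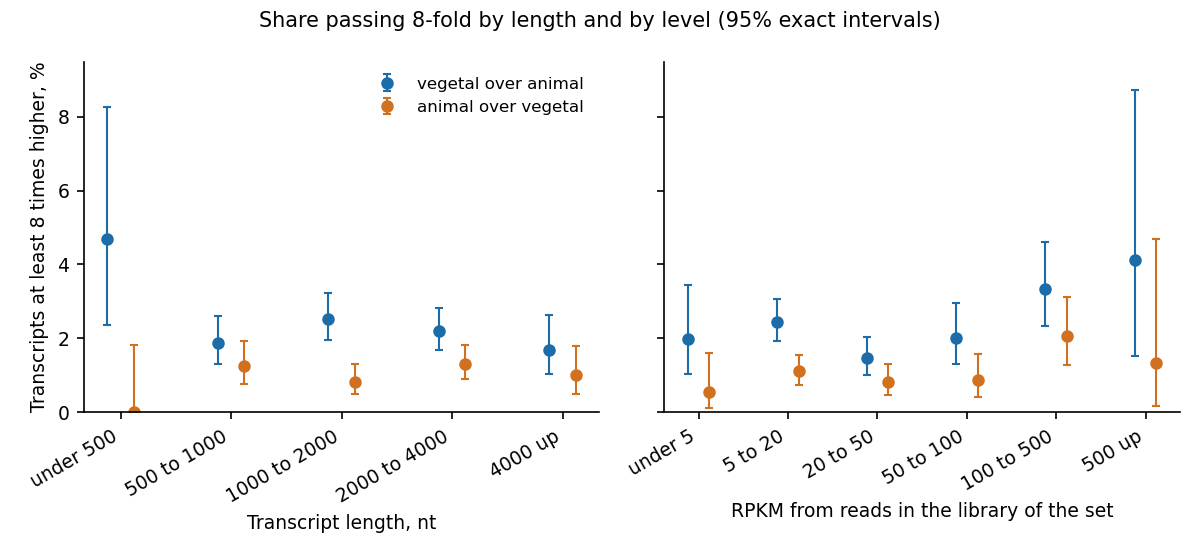
Percentage of tested transcripts at least 8 times higher in one library, by transcript length (left) and by RPKM in the library with the higher level (right), with exact 95% intervals; blue is vegetal over animal and orange animal over vegetal. The blue point is above the orange point in each class, and the classes with few transcripts (under 500 nt, 500 RPKM and up) have the widest intervals.

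The 3 shortest members had 266, 364 and 401 nt. The first had 281 vegetal and 14 animal reads, the second 683 and 42, and the third 788 and 37. Their ratios were 18.8 (11.0 to 34.8), 15.2 (11.1 to 21.3) and 19.9 (14.3 to 28.5), so their intervals overlapped. The longest member, of 8710 nt, had 328 vegetal and 29 animal reads and a ratio of 10.6 (7.22 to 16). The next longest, of 8355 nt, had 1180 vegetal and 24 animal reads and a ratio of 46.0 (30.7 to 72.0). The third, of 8332 nt, had 233 vegetal and 3 animal reads and a ratio of 72.6 (24.5 to 355). The interval of the longest member lay below those of the next longest and the third, which overlapped each other. Across the 184 members with an animal read Spearman's rho of length with the ratio was -0.10. All these ratios are at least 8 by the choice of members, so the rho does not describe length and ratio among transcripts at large. Members that share a gene and reads are not independent points.

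Most members lay within a factor of 2 of the limit that chose them. The ratio was 8 to 16 for 113 members (61.1%), 16 to 32 for 53, 32 to 100 for 10, and 100 or more, or without any animal read, for 9. The median ratio was 12.9. The counting interval lay wholly at 8-fold or above for 127 members (68.6%). For the other 58 it reached below 8, in the lowest case to 5.27, and their ratios were at most 13.6. The intervals come from the same counts that chose the members, so they are no independent support for membership. The members just inside the limit had ratios of 8.01, 8.01 and 8.06, with 317, 437 and 207 vegetal reads. Just outside, 3 transcripts had ratios of 7.96, 7.99 and 7.99, with 2479, 393 and 675 vegetal reads. No gap separates the members from the 356 tested transcripts between 4-fold and 8-fold.

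The limit of 200 reads was as gradual. The members with fewest reads had 200, 203 and 204 vegetal reads, with 1, 14 and 16 animal reads. The transcripts just below the limit had 196, 194 and 190 vegetal reads and 17, 11 and 18 animal reads, and their ratios, 10.8, 16.5 and 9.87, were in the range of the members. From 100 reads up to the limit, 72 further transcripts passed 8-fold.

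**Figure D4:**
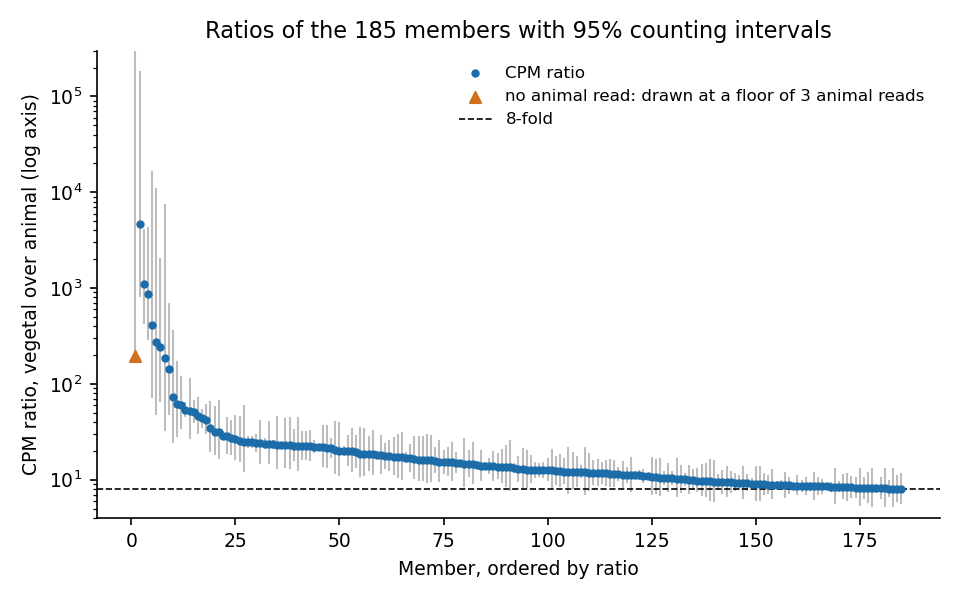
CPM ratio of vegetal over animal (log axis) for each of the 185 members in order of the ratio, with 95% counting intervals (grey). The triangle is the member with no animal read, drawn at a floor of 3 animal reads. Its grey line starts at that floor, above its interval's lower bound of 159, and runs to the top because it has no upper bound. The 9 members at the left lie above 100-fold with wide intervals, and 113 members lie between 8-fold and 16-fold.

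The 9 members beyond 100-fold formed the steepest end. ENSDART00000121756, of 2140 nt, had 4931 vegetal reads, which covered 100% of it at 130 RPKM, and 1 animal read. Its ratio was 4610, with a counting interval from 827 to 182113. Another, of 2845 nt, had 4750 vegetal and 4 animal reads, a ratio of 1110 (433 to 4076). One of 1905 nt had 2784 vegetal and 3 animal reads, a ratio of 868 (297 to 4209). The remaining 6 had 200 to 629 vegetal reads.

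Among those 6, a member of 1130 nt was the only one of the 185 without an animal read. It had 629 vegetal reads, 31.5 RPKM and 88% of its length covered. Its ratio has no upper bound. Set against an assumed floor of 3 animal reads, which is 0.181 CPM, its ratio was 196. Its exact 95% counting interval, of the kind used for the other members, starts lower, at 159. Together the 9 had 15001 vegetal and 16 animal reads, and in the vegetal library their reads covered 74 to 100% of each transcript. The next ratio below the 9 was 72.6 (24.5 to 355), and the lowest among them 141 (48.1 to 689), so these intervals overlapped. Both rest on 3 animal reads. Among the 45 members with at least 2000 vegetal reads, 42 had ratios of at most 54.0 (46.8 to 62.7). The other 3 had ratios of 868 (297 to 4209) or more, so among these members the intervals left a gap. The intervals of several of the 9 reached below 100, in the lowest case to 33.2. Among the 83 animal transcripts 14 (16.9%) were beyond 100-fold, against 9 of the 185 members (4.86%), and this difference was not tested.

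All members but 1 had some reads in the animal library. Whether these reads came from RNA held at the animal pole was not tested. The median was 42 animal reads (quartiles 20 and 123). Fewer than 10 were counted for 13 members and fewer than 50 for 106, whereas 33 members had 200 or more and 5 had 1000 or more. Those with the most animal reads were of 3446 nt (3236 reads), 3081 nt (3038 reads) and 2035 nt (1329 reads). The member of 3081 nt had 28252 vegetal reads and a ratio of 8.69 (8.37 to 9.03), so it passed on a small margin but with narrow counting error.

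The residual animal reads covered at least 10% of the transcript in most members, though their positions are not given. The animal reads of the members were a median of 51.0 bases long, by the deposited depth and coverage. In the 12 members with 1 to 9 animal reads, the covered length per read had a median of 50.9 nt. It was 50 nt or more in 8 of the 12 and 25.8 to 39.7 nt in the other 4. The 8 had only 1 to 4 animal reads each. A lone read cannot overlap another, so for the members with 1 read this value does not describe spread. Those with 2 to 4 reads had a listed mean depth of 1, so these few reads overlapped little or not at all. In the 30 members with 10 to 19 reads, the reads covered a median of 28.5% of the transcript (11 to 63%) and 32.7 nt each. In the 63 members with 20 to 49 reads they covered a median of 42.0% (3.60 to 86%) and 25.4 nt each. In the 33 members with 200 or more they covered a median of 92.0% (37 to 100%). Of the 172 members with at least 10 animal reads, 170 had at least 10% of the transcript covered and 96 at least 50%. Among all 185 members, 89 had less than 50% covered by animal reads.

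In a few members the animal reads were stacked on a small stretch. The member of 8355 nt had 24 animal reads on 3.60% of its length, at a mean depth of 4, whereas its 1180 vegetal reads covered 87%. A member of 1376 nt had 61 animal reads on 22% of its length at a depth of 10, against 3331 vegetal reads on 98%, and its ratio was 51.0 (39.6 to 66.9). A member of 628 nt had 364 animal reads on 37% at a depth of 80, against 3546 vegetal reads on 93%. Where the stretches lie is not given in the table, and whether they are shared with another transcript was not tested.

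Vegetal coverage of the members was like that of other transcripts. The members' median was 93% (quartiles 86 and 98), and the other transcripts' median was also 93%. At least 90% of the transcript was covered in 118 members (63.8%), beside 63.0% of the others, and less than 50% in 4 members (2.16%), beside 3.06%. Coverage was listed as 100% for 31 members, in a column of about 2 significant digits, so a few bases of these may be uncovered. The lowest coverage was in a member of 759 nt, whose 783 vegetal reads covered 21% at a mean depth of 260 and whose 27 animal reads covered 20%. Its RPKM, which is scaled by the whole annotated length, understates the level of the covered stretch. The next lowest were members of 8710 nt (46%) and 3274 nt (47%), with 328 and 324 vegetal reads.

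The deposited RPKM hides the residual reads of many members. The animal RPKM was listed as 0 for 72 members, yet 71 of these had animal reads, a median of 19.5 and up to 101. The listed value was 0 wherever coverage was under 10% or mean depth under 2, and of the 72, 71 had a depth under 2 and 13 a coverage under 10%. Recomputed from the reads, the animal level of the 72 had a median of 0.549 RPKM and reached 1.67 RPKM. They were longer than the other 113 members (median 2403 against 1429 nt). A given number of reads makes less depth on a long transcript, and what part this has in the difference was not tested. The median ratio of the 72 was 16.4, against 12.1. The split itself sets part of this gap, because few animal reads both lower the depth and raise the ratio. No member was listed at 0 in the vegetal library (0 of 185).

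All 185 members were in the authors' deposited table of differences, in which 511 of the 8335 transcripts (6.13%) with at least 200 vegetal reads were listed as higher at the vegetal pole. That table compares the same 2 libraries, so the overlap is no independent support. In the authors' deposited table the members' log2 fold changes ran from 2.98 to 12.24, with a median of 3.66. Their false discovery rates in the authors' deposited table ran from 1.02e-20 to 0.00323. The other 326 listed transcripts with enough reads had CPM ratios of 4.06 to 7.99, below the 8-fold limit. The members were 17.8% of the 1038 vegetal-higher transcripts of the authors' deposited table and held 39.7% of that group's vegetal reads. Only 511 of the 1038 had at least 200 vegetal reads, and the 185 members are all among these. The rest could not be members, so the minimum of reads sets part of the gap between these shares. Of the 50 vegetal-higher transcripts with the lowest false discovery rate in the authors' deposited table, 35 were members and 15 had fewer than 200 vegetal reads.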

How the data were processed

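Poly(A) RNA was sequenced in 1 library of animal pole and 1 library of vegetal pole explant material, with TruSeq libraries per the labels' protocols. The authors deposited, per the file headers, a mapped read count, a percent coverage, a mean depth (a coverage signal) and an RPKM for 50038 transcripts. The build is Zv9 and edgeR was used, per the submitters' processing notes. How reads were aligned and counted, by strand or not, and what was done with shared reads was not given in the sources used here. A member that overlaps an antisense gene or has a near-identical copy is therefore uncertain. The deposited RPKM was 0 in each transcript under 10% coverage or under a depth of 2, as read from the values (0 exceptions in each library). The authors' table of differences gives log2 fold changes, log2 CPM, p-values and false discovery rates, per the file headers. With 1 library per pole its p-values rest on an assumed dispersion.

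Members were found from the counts, with column sums as library totals. Ratios and shares have exact (Clopper-Pearson) 95% intervals, and medians have exact intervals from order statistics. RPKM was recomputed from reads where stated. The steps were tested on simulated data with independent reads. These data held no copied or shared reads and no spread between libraries, so they check the calculation only. The members, the lists and the alternatives were chosen with earlier results of these data known. The transcripts named or described were, by rule, the 10 members with the highest vegetal RPKM, the 10 with the highest lower bound of the ratio, those without animal reads, the 3 longest and shortest, those nearest to the limits, those with most animal reads and those with the lowest vegetal coverage. The members of 1376 and 628 nt and of 8355 nt were singled out for stacked animal reads after their values were seen. Because names are lacking, 2 identifiers are printed, and the gene lists were not run. Python 3.11.15, pandas 2.3.3, numpy 2.4.6, scipy 1.17.1, matplotlib 3.10.9, R 4.3.3 and edgeR 4.0.16 (for trimmed-mean scaling) were used.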

Additional observations from a re-analysis of the deposited data

How the results depend on the processing

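Scaling hardly moved the members. With trimmed-mean library sizes 183 of the 185 remained, and with the median ratio of well-counted transcripts set to 1 there were 196, including all 185. These scalings lowered all log2 ratios by 0.01 and raised them by 0.04. The number of members depends on its limits: it was 541 at 4-fold, 72 at 16-fold, 107 with at least 500 reads and 3335 with no minimum of reads, where counting error alone can pass 8-fold. Their share of the vegetal reads was 6.61% at 4-fold, 1.22% at 16-fold, 2.75% with at least 100 reads, 2.54% with at least 500 reads and 1.79% without the 5 members with most reads. The median length was 1338 nt with a minimum of 5 vegetal RPKM, which admits short transcripts with few reads, in place of 1773 nt. With at least 100 and at least 500 reads the median vegetal coverage was 91% and 97%, and the median of animal reads 24 and 92, since both rise with depth by construction. The other 14 of 28 alternatives moved the count by less than 1.5 times or kept the share or median within its interval. The limits on vegetal coverage and on animal reads, and the removal of the 5 members, were chosen after seeing the data. Leaving out a replicate could not be tried with 1 library per pole, and the spread between eggs or clutches is unknown. No paired analysis was possible because neither pole was replicated.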

Other observations

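Some members have nearly the same length, reads and ratio. ENSDART00000052603 (2035 nt) had 31323 vegetal and 1329 animal reads and a ratio of 22.0 (20.9 to 23.3), and a member of 2159 nt had 30226 and 1225 reads and a ratio of 23.1 (21.8 to 24.4). Members of 831, 919 and 885 nt had 8001, 7909 and 7129 vegetal reads and 304, 310 and 272 animal reads, with ratios of 24.6 (21.9 to 27.7), 23.9 (21.3 to 26.8) and 24.5 (21.7 to 27.8). All 5 are among the 10 members with the highest vegetal RPKM. Whether they are isoforms or copies that share reads was not tested, because the table ties no member to a gene. These groups were picked after their values were seen.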
